A study of Mus musculus with 292 samples.

Results

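The circadian clock, stress and the cell division cycle meet in a small set of genes, and 10 of them were followed through the day in 4 tissues of the mouse. Cdkn1a, Wee1, Ccnd1, Ccne1, Myc, Gadd45a, Gadd45b, Gadd45g, Btg2 and Mdm2 are 10 of the 48795 genes counted, and each was found by the Ensembl identifier that carries its symbol. Messenger RNA was sequenced from the cortex and striatum of the right hemisphere, the hypothalamus and the liver of wild-type C57BL/6J males aged 26 weeks. The labels name no transgene, mutant allele or treatment, and all groups differ only in tissue and time. Animals were taken every 3 h up to 36 h, which makes 13 time points, and these fold onto 8 groups of zeitgeber time (ZT, the hour within the day, counted by convention from lights-on). The labels used here do not state the light schedule.

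Most cells of an adult brain or liver do not divide, but they keep expressing regulators of division. Cdkn1a encodes p21, an inhibitor of cyclin-dependent kinases, and is the classical target of the tumour suppressor p53. Wee1 encodes a kinase that holds back mitosis and is known in mouse liver as a gene under direct clock control. Ccnd1 and Ccne1 encode cyclins D1 and E1, which drive cells from G1 into S phase, and Myc encodes a growth-promoting transcription factor. The 3 Gadd45 genes encode small proteins of the response to DNA damage and stress. Btg2 encodes an antiproliferative factor that promotes shortening of messenger RNA tails. Mdm2 encodes the ubiquitin ligase that degrades p53 and is itself a p53 target.

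Cortex gave 78 libraries, striatum 60, and hypothalamus and liver 77 each. A time point held 5 or 6 of them outside the striatum, where it held 2 to 6 and ZT15 had only 2 and ZT18 only 4 in all. The labels name 79 mice, of which 58 gave all 4 tissues, so within a tissue p-values measure the spread between animals. The main tests between 2 tissues took libraries of the same mouse as independent. A fit with the mouse as a block was run as an alternative. The total gene count of a library, in mega counts (M), lay between 28.3 and 40.5 M for cortex, 11.7 and 43.4 M for striatum, 29.2 and 50.01 M for hypothalamus and 11.7 and 41.9 M for liver. Summed hepatocyte markers held between 84247 and 121472 CPM (counts scaled to one common library total) in the liver, and summed excitatory neuron markers between 1176 and 1676 CPM in the cortex. The striatum was less even, with striatal projection neuron markers between 56.7 and 5017 CPM and hepatocyte markers between 4.65 and 21596 CPM. Almost all of that upper value was Ttr, which the choroid plexus also expresses, and Alb, the classical hepatocyte gene, stayed at or under 33.7 CPM in the striatum. Those ranges leave out 7 libraries that stood apart from their tissue in marker genes, 2 each in cortex, striatum and hypothalamus and 1 in liver, as was known from an earlier analysis. The 2 cortex libraries among them held 10.7 and 18.1 CPM of cortical markers, and the liver library, ZT18 replicate 4, held 14605 CPM of hepatocyte markers. All 7 stayed in the tests. Without them no 24 h call of the 10 genes was lost in any tissue. Some other results changed, and those described below are given both ways.

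On GRCm38 (GENCODE M21) Cdkn1a lies at chr17:29090976-29100727, Wee1 at chr7:110122046-110143286, Myc at chr15:61985391-61990374, Gadd45b at chr10:80930073-80932204 and Gadd45g at chr13:51846678-51848468, all on the plus strand. Ccnd1 at chr7:144929931-144939925, Ccne1 at chr7:38097984-38107534, Gadd45a at chr6:67035096-67037457, Btg2 at chr1:134075170-134079120 and Mdm2 at chr10:117688875-117710758 are on the minus strand. RefSeq's promoter table for GRCm38.p6 held 8 promoters of 7 of the genes, and those of Wee1, Ccnd1 and Myc were not among them. The 6 sequences below are the 250 bases upstream of the start, read 5′ to 3′ on the gene's strand. Of these genes 5 had a called 24 h or 12 h rhythm in some tissue, and Gadd45b, which had none by those tests, is set beside its relative Gadd45g. The promoter of Mdm2, which was also called in cortex, and the downstream promoter of Cdkn1a are not printed. The latter held none of the motifs. Capitals mark the motifs that were searched on both strands: the E-box CACGTG, the D-box TTATGNAA, the AGGTCA core bound by the ROR and REV-ERB receptors, the cAMP response element TGACGTCA, the p53 half-site, and the CCAAT box.
Cdkn1a, upstream start, promoter, chr17:29090729-29090978, plus strand: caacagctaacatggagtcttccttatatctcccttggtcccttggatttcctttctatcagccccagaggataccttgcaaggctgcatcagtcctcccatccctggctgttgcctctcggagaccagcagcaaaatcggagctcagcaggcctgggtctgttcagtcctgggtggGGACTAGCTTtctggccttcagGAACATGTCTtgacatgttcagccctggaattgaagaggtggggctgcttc
Ccne1 promoter, chr7:38107491-38107740, minus strand: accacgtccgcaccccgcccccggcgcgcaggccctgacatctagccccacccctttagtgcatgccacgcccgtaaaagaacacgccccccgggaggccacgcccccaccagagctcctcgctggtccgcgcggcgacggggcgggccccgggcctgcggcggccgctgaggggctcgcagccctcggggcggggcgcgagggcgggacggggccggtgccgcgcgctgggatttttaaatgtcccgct
Gadd45a promoter, chr6:67037408-67037657, minus strand: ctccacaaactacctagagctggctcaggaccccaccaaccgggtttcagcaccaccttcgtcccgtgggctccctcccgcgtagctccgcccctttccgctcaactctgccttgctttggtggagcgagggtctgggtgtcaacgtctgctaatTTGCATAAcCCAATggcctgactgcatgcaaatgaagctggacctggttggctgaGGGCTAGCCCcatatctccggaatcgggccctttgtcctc
Gadd45b promoter, chr10:80929841-80930090, plus strand: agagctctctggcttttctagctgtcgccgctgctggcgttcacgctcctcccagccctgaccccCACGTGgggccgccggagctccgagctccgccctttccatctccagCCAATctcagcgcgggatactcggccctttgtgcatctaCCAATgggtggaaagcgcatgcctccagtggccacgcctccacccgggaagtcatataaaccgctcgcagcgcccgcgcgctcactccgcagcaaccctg
Gadd45g promoter, chr13:51846425-51846674, plus strand: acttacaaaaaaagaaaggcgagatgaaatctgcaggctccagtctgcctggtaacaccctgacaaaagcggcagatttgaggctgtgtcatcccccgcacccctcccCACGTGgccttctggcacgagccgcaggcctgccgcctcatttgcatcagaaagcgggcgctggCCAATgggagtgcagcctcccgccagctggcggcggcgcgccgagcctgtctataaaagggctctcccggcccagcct
Btg2 promoter, chr1:134079156-134079405, minus strand: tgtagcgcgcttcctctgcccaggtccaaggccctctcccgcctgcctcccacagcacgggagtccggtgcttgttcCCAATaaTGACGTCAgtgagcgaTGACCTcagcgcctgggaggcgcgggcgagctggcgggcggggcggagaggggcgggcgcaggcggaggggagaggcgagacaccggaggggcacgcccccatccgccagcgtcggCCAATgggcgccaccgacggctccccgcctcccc

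The E-box, to which CLOCK and BMAL1 bind, was found in Gadd45b, 185 to 180 bases before the start, and in Gadd45g, 142 to 137 bases before it. It occurs in 6.02% of the 32851 promoters of the table. A D-box stands 95 to 88 bases before the start of Gadd45a, a motif found in 3.07% of promoters. The Btg2 promoter holds a cAMP response element, which 1.55% of promoters have, and next to it an AGGTCA core, which 14.02% have. Half-sites for p53 lie in the upstream promoter of Cdkn1a, in the promoters of Gadd45a and Mdm2 and in 7.13% of all promoters. CCAAT was found in 5 of the 7 genes and in 33.8% of all promoters, and the glucocorticoid receptor motif ACANNNTGT, present in 5.84%, in none. The Ccne1 promoter held none of these letters. A match describes the sequence and is not evidence of binding.

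The widest daily swings among these genes were those of Cdkn1a, Ccne1 and Wee1 in the liver. By edgeR's quasi-likelihood test of a 24 h cosine, 6 of the 10 genes were rhythmic at an adjusted p under 0.05, in a tissue where 72.7% of the 16159 tested genes were. Swings of at least 1.5-fold between the fitted peak and trough were called for the same 6 of 10, against 27.8% of the tested genes. The 10 genes had a median log2 peak-to-trough ratio of 1.07, and all tested genes one of 0.38. In bulk tissue, fewer cells of a type and less RNA per cell cannot be told apart. Summed hepatocyte markers differed by 1.10-fold between the lowest and the highest ZT group of the liver. Markers of microglia and macrophages differed by 1.55-fold, endothelial markers by 1.37-fold and blood cell markers by 1.23-fold. Their part in the results was not tested.

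Cdkn1a had the largest liver swing of the set. Its normalised expression at ZT21 had a lowest value of 9.50, a median of 15.5 and a highest value of 27.0 CPM in 6 livers. At ZT9 the lowest, median and highest of 11 livers were 0.525, 0.598 and 0.943 CPM. The 2 groups did not overlap, and their means were 16.2 ± 6.48 (SD, n = 6) and 0.689 ± 0.159 CPM (SD, n = 11). The fitted log2 ratio was 4.44 ± 0.22 (SE), a 21.6-fold swing peaking at ZT21.5 (edgeR, adjusted p = 6.0e-30). Only 0.130% of the genes tested in liver had a larger fitted ratio. The transcript rose in steps, from a mean of 0.966 CPM at ZT12 through 5.11 at ZT15 and 6.63 at ZT18 to its maximum at ZT21, was still 14.2 at ZT0 and had dropped to 4.55 by ZT3.

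Wee1 and Ccne1 formed an opposite phase, high when Cdkn1a was low. Wee1 ran from 23.8 to 37.4 CPM, median 30.3, in the 11 livers of ZT9 and from 2.23 to 4.10, median 3.38, in the 12 of ZT3. The groups were separate by a wide gap, and the fitted swing was 8.41-fold with a peak at ZT12.6 (log2 ratio 3.07 ± 0.14, SE, edgeR adjusted p = 3.7e-30). Wee1 rose steeply between ZT6, at 8.69 ± 2.94 CPM (SD, n = 12), and ZT9, at 30.2 ± 3.78 (SD, n = 11), and then declined slowly to 8.20 ± 2.39 at ZT21 (SD, n = 6). That sawtooth shape also gave it a 12 h component, with a log2 ratio of 1.08 ± 0.10 (SE, edgeR adjusted p = 1.5e-12). Ccne1 was scarce in liver, with a median of 24 counts per library. It lay between 2.43 and 6.63 CPM, median 3.28, at ZT12 and between 0.172 and 0.727, median 0.368, at ZT0, with 12 livers in each group and no overlap. Its fitted swing was 11.8-fold with a peak at ZT11.4 (log2 ratio 3.56 ± 0.21, SE, edgeR adjusted p = 7.2e-27), and a 12 h component was called too (log2 ratio 1.16 ± 0.18, SE, adjusted p = 8.5e-06). Ccne1 stayed high for a short window, at means of 3.06 CPM at ZT9, 3.77 at ZT12 and 1.01 at ZT15.

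**Figure D1:**
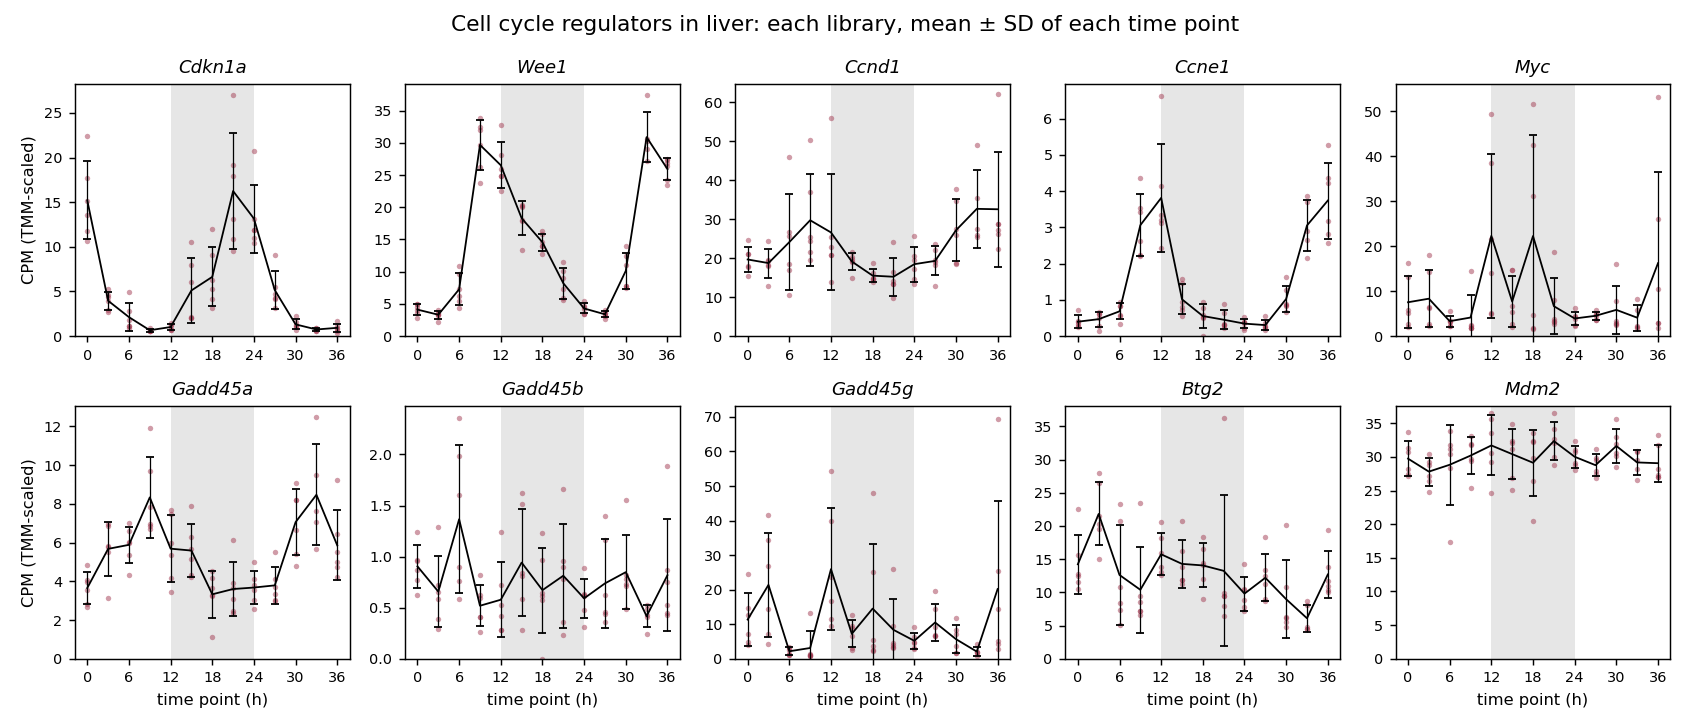
Expression of the 10 genes in the liver at the 13 time points; the x axis is the time point in hours with 12 to 24 h shaded grey, the y axis is normalised CPM, points are single livers and lines with error bars are the mean of a time point and its SD. Cdkn1a is highest at ZT21 and lowest at ZT9, Wee1 and Ccne1 have their maxima at ZT9 and ZT12, and Myc and Gadd45g scatter most between animals of the same time.

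Gadd45a and Ccnd1 peaked earlier in the day. Gadd45a ran from 5.69 to 12.5 CPM, median 7.64, in the 11 livers of ZT9 and from 1.10 to 4.55, median 3.47, in the 6 of ZT18. The groups did not overlap, and the fitted swing was 2.23-fold with a peak at ZT9.11 (log2 ratio 1.16 ± 0.13, SE, edgeR adjusted p = 6.2e-12). Its lowest value came from the liver library that stood apart. Of its exonic bases, 19.1% are shared with an antisense gene, and without a known strand setting the 2 cannot be told apart. Ccnd1 had values from 19.6 to 50.2 CPM, median 25.9, at ZT9 and from 9.75 to 24.1, median 13.8, at ZT21, so the groups overlapped. The fitted swing was 1.94-fold with a peak at ZT9.19 (log2 ratio 0.96 ± 0.14, SE, edgeR adjusted p = 4.1e-08). The Ccnd1 model shares 23.4% of its exonic bases with an antisense gene.

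Myc was also called in the liver, but the animals of one time differed widely. Its values at ZT18 were between 1.61 and 51.6 CPM, median 18.0, in 6 livers, with a median of 4.65 in the 5 left without the library that stood apart, and at ZT12 between 1.81 and 53.3, median 12.3, in 12. At ZT9 they were between 1.76 and 14.4, median 2.33, in 11 livers. The lowest livers of ZT12 and ZT18 were therefore no higher than the median of ZT9. The fitted swing was 3.72-fold with a peak at ZT15.8 (log2 ratio 1.89 ± 0.43, SE, edgeR adjusted p = 2.1e-04). At ZT15, the group nearest that fitted peak, the 6 livers lay only between 2.01 and 14.7 CPM. The fitted peak time therefore did not fall on the group with the highest mean, ZT18.

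Gadd45g, Btg2, Gadd45b and Mdm2 did not pass the 24 h test in the liver, with adjusted p of 0.222, 0.306, 0.788 and 0.498 by edgeR. Gadd45g and Btg2 had instead a 12 h component, which 15.4% of the tested liver genes had. The 12 h component of Gadd45g had peaks at ZT2.07 and ZT14.1 and a log2 ratio of 2.21 ± 0.45 (SE, edgeR adjusted p = 0.00153). Gadd45g was high at ZT3, at 15.9 ± 12.2 CPM (SD, n = 12), low at ZT6 and ZT9, at 3.92 ± 3.38 (SD, n = 12) and 2.64 ± 3.67 (SD, n = 11), and high again at ZT12, at 23.1 ± 21.2 (SD, n = 12). Single livers of ZT12 ran from 2.68 to 69.3 CPM and overlapped with those of ZT9, from 0.725 to 13.3. Btg2 had its 12 h peaks at ZT2.71 and ZT14.7 (log2 ratio 0.69 ± 0.21, SE, edgeR adjusted p = 0.0416). With ZT as a factor of 8 levels in place of the cosine, Gadd45g, Btg2 and Gadd45b each passed in the liver, with adjusted p of 1.4e-06, 0.0190 and 0.0261. Gadd45b was scarce there, with a median of 22 counts per library. No share over all genes under that model is set beside these calls, so they are no result about the set. Mdm2 was flat, between 24.8 and 31.1 CPM in the 12 livers of its lowest group, ZT3, and between 28.8 and 36.5 in the 6 of its highest, ZT21. Its fitted log2 ratio was 0.07 ± 0.06 (SE), and 96.6% of the tested genes had a larger one.

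In the cortex, Gadd45a rather than Cdkn1a led the set. There 6 of 10 genes were called rhythmic, against 43.7% of 19564 tested genes. A swing of at least 1.5-fold was called for 3 of the 10, against 7.94% of the tested genes. Gadd45a lay between 7.34 and 13.3 CPM, median 8.83, in the 6 cortices of ZT15 and between 3.27 and 5.30, median 3.75, in the 12 of ZT9, with no overlap. The fitted swing was 2.42-fold with a peak at ZT20.0 (log2 ratio 1.28 ± 0.14, SE, edgeR adjusted p = 6.1e-11). The time course was not a smooth cosine, with means of 9.42 CPM at ZT15, 6.14 at ZT18, 6.97 at ZT21 and 8.97 at ZT0, and about 4 CPM from ZT6 to ZT12. No 12 h component was called for any of the 10 genes in the brain tissues, where 0.291% (cortex), 0.0277% (striatum) and 0.0784% (hypothalamus) of the tested genes had one.

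The other cortical rhythms were smaller in fitted ratio. Btg2 swung 1.63-fold with a peak at ZT19.1 (log2 ratio 0.71 ± 0.12, SE, edgeR adjusted p = 1.4e-05). Cdkn1a swung 1.62-fold with a peak at ZT0.20 (log2 ratio 0.69 ± 0.09, SE, edgeR adjusted p = 9.8e-09). Cdkn1a values at ZT0, from 10.1 to 25.4 CPM with a median of 18.9, overlapped with those at ZT12, from 8.25 to 11.3 with a median of 10.4. Its lowest ZT0 value came from one of the cortex libraries that stood apart. Ccnd1 swung 1.47-fold with a peak at ZT22.9 (log2 ratio 0.56 ± 0.06, SE, edgeR adjusted p = 2.0e-12), and its values at ZT3, from 41.9 to 57.7 CPM, were all above those at ZT12, from 27.6 to 33.8. Mdm2 and Wee1 were called at 1.21-fold and 1.16-fold, with peaks at ZT18.4 and ZT18.0. The Wee1 call was lost in the first cycle alone (edgeR adjusted p = 0.134). Ccne1, Myc, Gadd45b and Gadd45g did not pass, with adjusted p from 0.207 to 0.593. Summed excitatory neuron markers differed by 1.10-fold between the ZT means of the cortex, endothelial markers by 1.37-fold, striatal projection neuron markers by 1.99-fold and choroid plexus markers by 4.03-fold, and their part in the results was not tested.

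**Figure D2:**
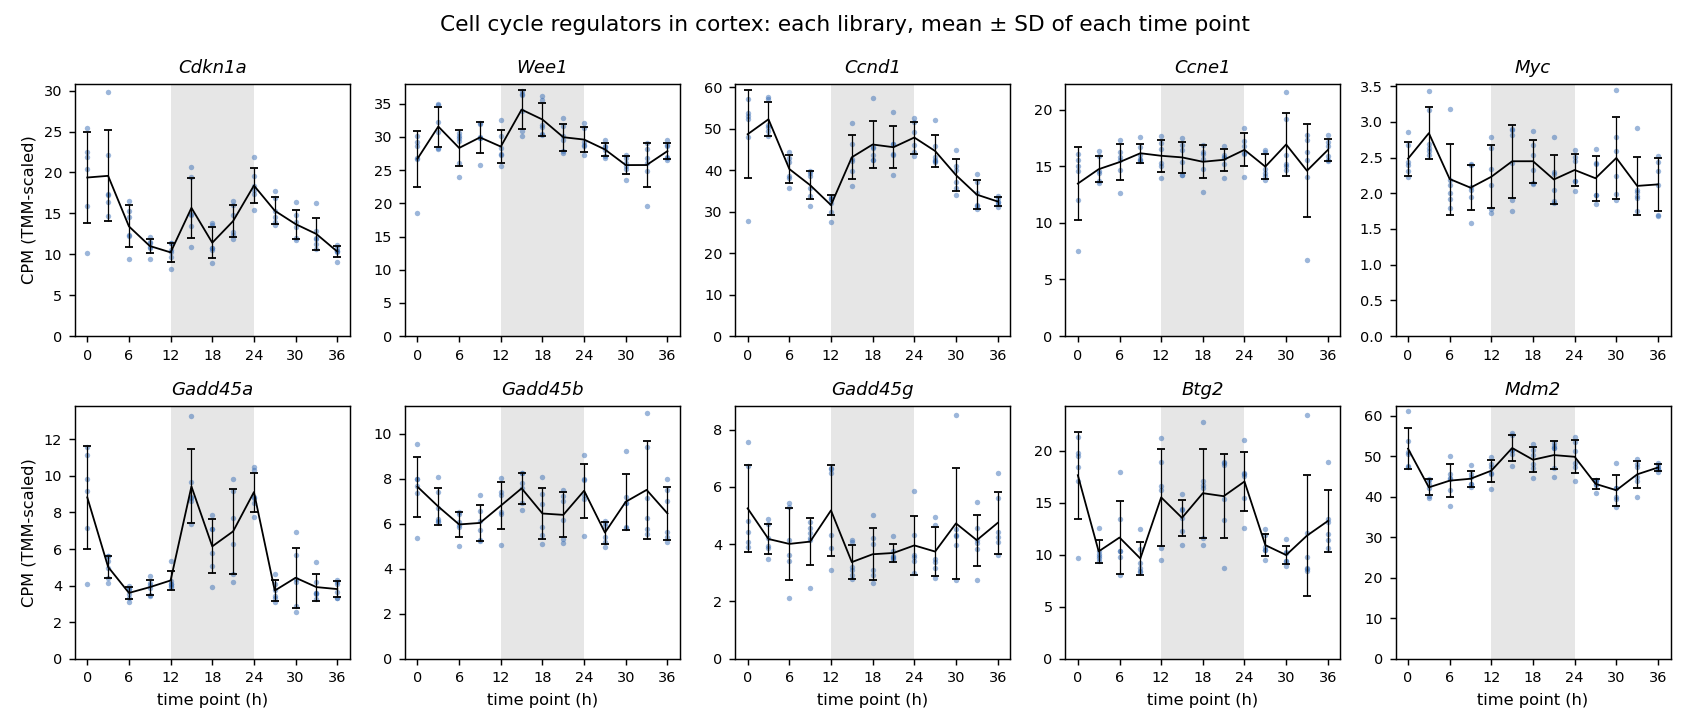
Expression of the 10 genes in the cortex at the 13 time points, drawn as for the liver, with the time point in hours on the x axis and normalised CPM on the y axis; points are single cortices, lines with error bars the mean of a time point and its SD, and 12 to 24 h is shaded grey. Gadd45a is near 4 CPM from ZT3 to ZT12 and higher from ZT15 to ZT0, and Ccnd1 falls from ZT3 to ZT12.

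Fewer of the genes were called in the hypothalamus and the striatum. In the hypothalamus 3 of 10 genes were called, against 24.3% of 20407 tested genes, and in the striatum 1 of 10, against 5.68% of 21637. Hypothalamic Cdkn1a had values between 8.75 and 17.9 CPM, median 10.8, at ZT15 and between 5.04 and 11.3, median 6.47, at ZT9, and these overlapped. It swung 1.57-fold with a peak at ZT19.3 (log2 ratio 0.65 ± 0.10, SE, edgeR adjusted p = 6.3e-06) and was the one of the 10 genes with a called hypothalamic swing of at least 1.5-fold, as 4.56% of the tested genes had. Ccnd1 was called at 1.16-fold, and Wee1 at 1.09-fold (adjusted p = 0.0146), a call that was lost with library totals alone, in the first cycle alone and with ZT as a factor. With ZT as a factor, Gadd45g and Ccne1 passed in the hypothalamus (edgeR adjusted p = 0.00685 and 0.0397), with no share over all genes set beside them. Among markers in the hypothalamus, the ZT means differed by 1.28-fold for hypothalamic neurons, 1.44-fold for oligodendrocytes and 2.21-fold each for blood cells and striatal projection neurons, and pituitary markers had ZT means from 0.0323 to 83.6 CPM. Their part in the result was not tested. In the striatum none of the 10 was called with a swing of at least 1.5-fold, and 3.09% of the tested genes were. Striatal Btg2 swung 1.42-fold with a peak at ZT18.6 (log2 ratio 0.51 ± 0.11, SE, edgeR adjusted p = 0.0053), a call that was lost in the first cycle alone (adjusted p = 0.164). Its values at ZT18, from 11.7 to 19.3 CPM in 4 striata, did not overlap with those at ZT9, from 7.69 to 11.3 in 9. Markers of the tissue moved with time in the striatum, where the ZT means of projection neuron markers differed by 4.15-fold, and their part in the result was not tested. Striatal Cdkn1a, from 3.63 to 23.3 CPM at ZT6 alone, had a fitted swing of 1.05-fold and did not pass (adjusted p = 0.989).

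**Figure D3:**
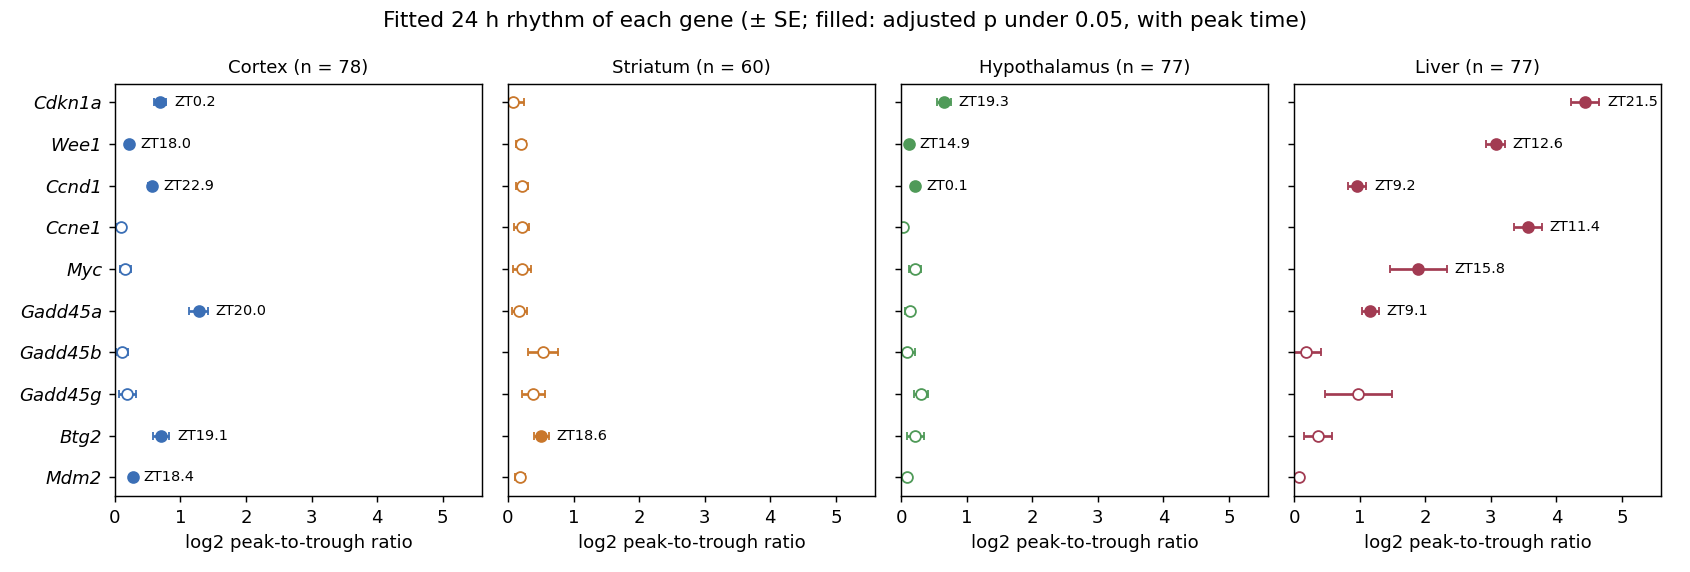
Fitted log2 peak-to-trough ratio of each gene in each tissue, with error bars of 1 SE; filled symbols passed the 24 h test at an adjusted p under 0.05. Cdkn1a, Ccne1 and Wee1 have log2 ratios of 4.44, 3.56 and 3.07 in the liver and stay under 0.7 in the brain tissues.

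The rhythms differed between tissues in size and in phase. The interaction of tissue with the cosine was called for 7 of the 10 genes between cortex and liver, where 63.6% of 14850 genes differed. It was called for 6 between hypothalamus and liver, where 60.6% did, and for 6 between striatum and liver, where 42.0% did. Among these, the Myc difference was lost with the mouse as a block against both the hypothalamus (adjusted p = 0.150) and the striatum (adjusted p = 0.381). Gadd45a was the clearest case of a phase difference, peaking at ZT20.0 in cortex and at ZT9.11 in liver with a similar swing, 2.42-fold and 2.23-fold (edgeR interaction, adjusted p = 2.5e-22). Ccnd1 peaked at ZT22.9 in cortex and at ZT9.19 in liver (adjusted p = 4.5e-16). Gadd45a and Ccnd1 share 19.1% and 23.4% of their exonic bases with antisense genes, whose part in the phase difference was not tested. The 3 tissues that called Cdkn1a had its peak at ZT19.3 in hypothalamus, ZT21.5 in liver and ZT0.20 in cortex. Its cortex and hypothalamus rhythms differed nonetheless (adjusted p = 4.9e-05), as did those of Ccnd1 (adjusted p = 0.0044) and Gadd45a (adjusted p = 1.5e-07), in a pair of tissues where 6.14% of 19012 genes differed. Between cortex and striatum, where 0.501% of 19344 genes differed, the rhythms of Ccnd1 (adjusted p = 1.7e-04) and Gadd45a (adjusted p = 2.5e-05) did. Without the libraries that stood apart Cdkn1a differed there too (edgeR interaction, adjusted p = 0.0478, against 0.258 with them). None of the 10 differed between striatum and hypothalamus, where 0.292% of 20176 genes did. The mouse block kept the calls of Ccnd1 and Gadd45a between cortex and striatum, with adjusted p of 0.0133 and 0.0301. It added Mdm2 between cortex and hypothalamus (adjusted p = 0.0177).

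**Figure D4:**
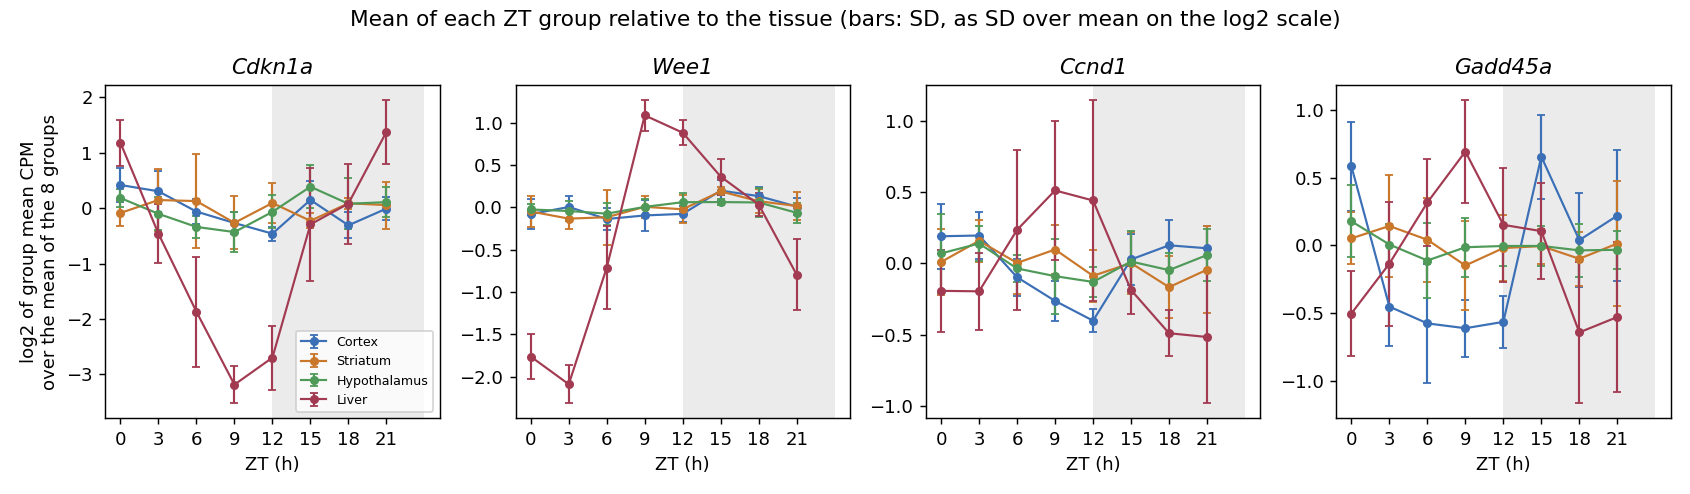
Cdkn1a, Wee1, Ccnd1 and Gadd45a in the 4 tissues, as the mean of each ZT group on a log2 scale; the x axis is ZT in hours with ZT12 to ZT24 shaded grey, the y axis the log2 ratio of the group mean to the mean of the 8 groups of the tissue, and error bars are the SD over the mean on that scale. Gadd45a and Ccnd1 are high at ZT9 in liver and low there in cortex, while Cdkn1a is low at ZT9 and ZT12 in liver and cortex.

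Levels were compared between genes only as FPKM, the authors' values per length of the gene model. By median FPKM, Mdm2 was the most abundant of the 10 in every tissue, from 6.03 in liver to 9.41 in striatum. Ccne1 was the gene most unlike between brain and liver, with a liver median of 0.287 beside 5.89 for cortex, 3.94 for striatum and 3.68 for hypothalamus. Gadd45b followed it, at 0.515 in liver, 2.54 in hypothalamus, 4.29 in striatum and 5.21 in cortex. Myc had the reverse order, from 0.832 in cortex and 1.21 in striatum to 1.52 in hypothalamus and 1.63 in liver. Scaled by TMM (a scaling that holds the bulk of genes level between libraries), Ccne1 was 9.28-fold lower in liver than in cortex over the fitted cycle (log2 difference −3.21, edgeR), Gadd45b 4.93-fold lower and Myc 6.84-fold higher. These are differences of fitted means, and liver Myc had a mean FPKM of 3.16 and a highest value of 19.4 beside its median of 1.63. Level differences were called for 10 of 10 genes between cortex and liver, where 96.0% of the tested genes differed. The counts were 10 between cortex and hypothalamus (88.7%), 9 between cortex and striatum (85.1%), 9 between hypothalamus and liver (94.9%), 9 between striatum and liver (92.6%) and 6 between striatum and hypothalamus (72.8%), all near these backgrounds. Without the libraries that stood apart, Wee1 was called too between striatum and hypothalamus (edgeR adjusted p = 0.0443, against 0.0942 with them). With library totals alone the median gene shifted by −0.55 on the log2 scale between cortex and liver, and under that scaling Mdm2 changed from higher to lower in liver.

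The second cycle repeated the first at ZT0 to ZT12 in other animals. In liver, hypothalamus and cortex none of the 10 genes differed between cycles at an adjusted p under 0.05, against 0.00%, 0.00% and 6.44% of the tested genes by edgeR. At an unadjusted p under 0.05 there were 1078 genes in liver and 1052 in hypothalamus. Without the 2 cortex libraries that stood apart, Wee1 and Ccnd1 were called in the cortex (log2 difference −0.09 each, edgeR adjusted p = 0.0264 and 0.0419), as were 3042 genes against 1217 with them. Liver Btg2 was at 14.9 CPM in the first and 10.1 CPM in the second cycle (log2 difference −0.59 ± 0.13, SE, edgeR adjusted p = 0.368). In the striatum Gadd45b, at 7.28 and 5.11 CPM, and Cdkn1a, at 11.8 and 8.36 CPM, were lower in the second cycle (edgeR adjusted p = 0.0445 and 0.0493, 2.88% of genes called). Both calls were lost without the libraries that stood apart (adjusted p = 0.0732 and 0.0795) and with a replicate block (0.207 and 0.206).

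Animals taken at the same time also differed from each other, and pairs of the 10 genes were compared in this. Each gene's log2 CPM was taken as a deviation from the mean of its time point, and 180 pairs of genes and tissues were tested by permuting animals within time points, a comparison chosen after the data were seen. At Benjamini-Hochberg adjusted p under 0.05 for both Pearson's r and Spearman's rho, 60 of the 180 were called, of 45 pairs each 12 in cortex, 9 in liver, 17 in striatum and 22 in hypothalamus. The median r over the 45 pairs of a tissue was −0.06 for striatum, 0.06 for hypothalamus, 0.08 for liver and 0.17 for cortex. These counts are no result about the set, since ties between genes were common: 36.9% (liver), 39.5% (cortex), 49.9% (hypothalamus) and 50.2% (striatum) of all pairs of genes above 1 on the log2 CPM scale had an r at least as far from 0 as the weakest called pair of the tissue, and of the 45 pairs 13, 16, 24 and 17 did. The closest pair was Myc and Gadd45g in the liver, with r = 0.853 and rho = 0.850 over 77 livers (permutation p = 1e-05, the smallest the permutations can give, adjusted p = 2.0e-04). Without the 2 livers farthest from the median r was 0.829, and without the library that stood apart it was 0.886. Among genes above 1 on the log2 CPM scale, 0.0175% were tied more closely to Myc and 0.00874% to Gadd45g. Livers above the mean of their time point for Myc were mostly above it for Gadd45g too. In the cortex the same pair had r = 0.359 and rho = 0.333 (adjusted p = 0.018 and 0.023), and in the striatum r = −0.350 and rho = −0.405 (adjusted p = 0.019 and 0.011). Liver Myc varied against Cdkn1a (r = −0.417, rho = −0.410, permutation, adjusted p = 0.0038 for r).

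Cdkn1a and Gadd45b were called together in all 3 brain tissues. Over 60 striata they had r = 0.754 and rho = 0.753, and over 77 hypothalami r = 0.703 and rho = 0.711 (permutation, adjusted p = 2.0e-04 for each r). Over 78 cortices they had r = 0.435 and rho = 0.404 (permutation, adjusted p = 8.2e-04 for r). In the striatum, 1.03% of genes were tied more closely to Cdkn1a than Gadd45b was. Without the 2 farthest libraries r was 0.698, 0.657 and 0.347 in the 3 tissues. Tissue markers moved with both genes in the striatum, where Cdkn1a had r = 0.631 and Gadd45b r = 0.598 with the summed projection neuron markers, and with Gadd45b in the hypothalamus, where it had r = 0.667 with the summed blood cell markers. Their part in the result was not tested. Of 480 relations of a gene with a marker list, 29 were called in striatum, 37 in hypothalamus, 17 in cortex and 2 in liver. In the liver these were Gadd45b and Ccnd1 with hepatocyte markers, and neither Myc nor Gadd45g was called with any of the 12 lists. No share over all genes was set beside these marker counts. Neither the counts nor their contrast between tissues is therefore a result about the set, and the same holds for the liver genes named.

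**Figure D5:**
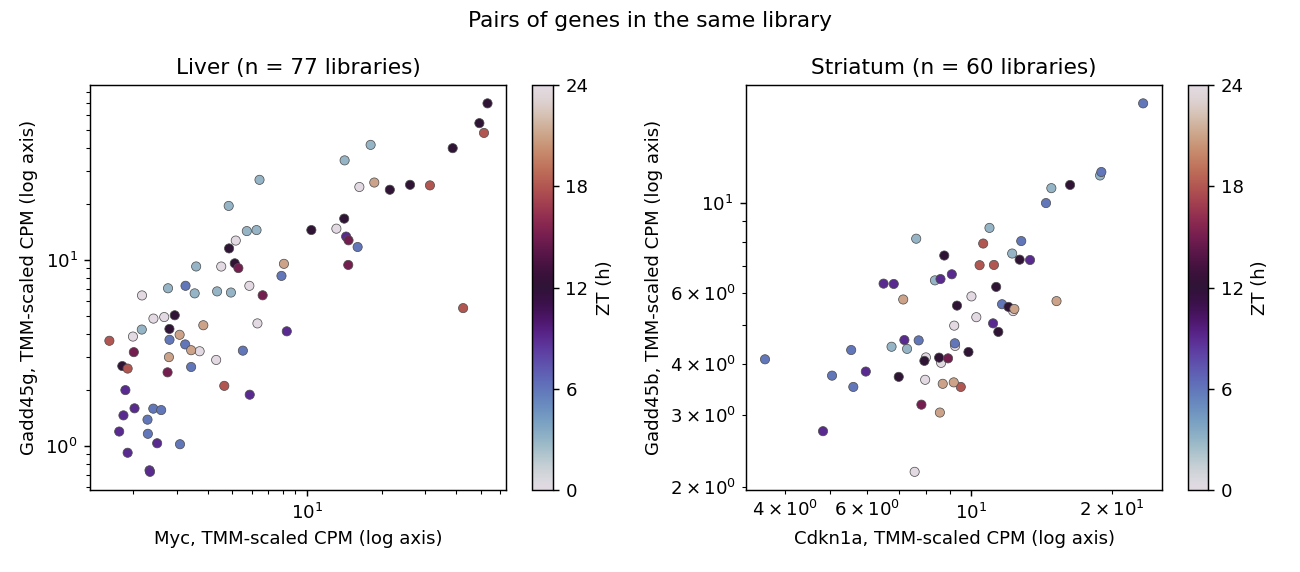
Left, Myc against Gadd45g in single livers, and right, Cdkn1a against Gadd45b in single striata, both axes normalised CPM on a log scale, with colour giving the ZT group. Livers of the same time spread along a line, with r = 0.853 after removal of the time point means, and striata do so with r = 0.754.

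Deviations of a gene in one tissue were also set against those in another tissue of the same mouse. Of 60 such relations none passed (smallest adjusted p = 0.827 for r and 0.386 for rho, permutation). At an unadjusted p under 0.05 for r there were 2, Mdm2 between cortex and hypothalamus (r = 0.257, 77 mice) and Btg2 between cortex and liver (r = −0.265).

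Other genes of the same pathways were described from 7 lists. In the liver, where 72.7% of genes were called, so were 20 of 30 further p53 targets, 16 of 21 G1 and S phase genes, 9 of 12 G2 and M phase genes and 13 of 14 proliferation markers. Among the clock phase markers 16 of 16 were called in liver and 15 of 16 in cortex, where 43.7% of genes were. The p53 targets had a median log2 ratio of 0.35 in liver, beside 0.38 for all tested genes, and none of them was near the 4.44 of Cdkn1a. Gtse1, a regulator of p53 in G2, had the third smallest p at 3.33-fold with a peak at ZT8.52. The list's first gene by p, Pidd1, which encodes a p53-induced death domain protein, swung 1.71-fold with a peak at ZT19.9. Ccne2, which encodes the second E-type cyclin, peaked at ZT14.4 in liver with a 4.24-fold swing. Rrm2, the small subunit of ribonucleotide reductase, swung 3.44-fold with a peak at ZT13.6, and Tk1, thymidine kinase, 2.09-fold with a peak at ZT14.8. Among the G2 and M phase genes called in liver, Cdc20, an activator of the anaphase-promoting complex, swung 2.84-fold with a peak at ZT5.50. Cdk1, the mitotic kinase, swung 1.59-fold with a peak at ZT10.6. Tob2, a relative of Btg2, peaked at ZT12.3 in liver with a 2.51-fold swing, where Btg2 itself did not pass the 24 h test.

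In the cortex 43.7% of the tested genes were called. So were 17 of 30 p53 targets, 11 of 21 G1 and S phase genes and 6 of 15 G2 and M phase genes. The counts were 5 of 14 for proliferation markers and 12 of 13 for the MYC and MAX network. Ccnd2, which encodes cyclin D2, swung 1.62-fold with a peak at ZT17.4, beside the 1.47-fold and ZT22.9 of Ccnd1. Mycn, a relative of Myc, swung 1.61-fold with a peak at ZT21.2, where Myc did not pass (adjusted p = 0.207). In the liver 9 of 12 MYC and MAX network genes were called, against 72.7% of the tested genes. Of the BTG and TOB family and GADD45 partners, 7 of 9 were. The partner Map2k6, a kinase upstream of p38, peaked at ZT12.1 in liver, with a 2.85-fold swing, and at ZT16.4 in cortex, with one of 1.28-fold.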

How the data were processed

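For each tissue the authors deposited raw counts per Ensembl gene and FPKM values. For genes with enough counts, 15764 to 20285 per tissue, the deposited FPKM was checked to follow the count over the library total times a factor fixed for the gene. STAR 2.7.3a, HTSeq 0.10.0, GRCm38 and mm10 are listed in the submitters' processing notes. The strand setting and annotation release are not given in any source used here. Gene positions and shared exonic bases are from GENCODE M21 on GRCm38. Of 48795 identifiers 48349 matched a symbol.

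Counts were tested with edgeR 4.0.16 in R 4.3.3 (filterByExpr by ZT group, TMM, quasi-likelihood). The 24 h test had cosine and sine terms, the 12 h test added a second pair, cycles were compared at ZT0 to ZT12 with ZT as a factor, and tissues through tissue and its interaction with the cosine. Genes were called at a Benjamini-Hochberg adjusted p under 0.05 over all genes tested. SEs of log2 ratios are by the delta method. Group values are CPM scaled by TMM. Deviations between animals used log2 CPM with a prior count of 2, and 2-sided permutations within time points. The scripts were tested on simulated data.

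The members and lists were chosen with earlier results of these data known, as were the 7 libraries that stand apart. Named were the 10 genes, up to 3 called genes with the smallest p per list in liver and cortex, and the 3 genes most like each rhythmic member. A part is described, and a few genes within this rule are not reported here. Alternatives were DESeq2 1.42.0, other scalings, no filter, each cycle, libraries left out, the library code and replicate or mouse blocks. Libraries of one replicate number in 2 tissues came from the same mouse in 4 to 12 of 60 or 77 cases, so the mouse codes were used for pairing. Depth limits scarce transcripts: in liver Ccne1 and Gadd45b had medians of 24 and 22 counts per library.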

Additional observations from a re-analysis of the deposited data

Results flagged for a closer look

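Of 140 sets of 4 to 10 libraries of one gene, tissue and ZT, 15 held a library set apart from the rest by Dixon's criterion, 4 high and 11 low, and chance flags about 1 in 20 sets. In 5 cases the library was one that stood apart in marker genes. These were Striatum ZT21 replicate 3, with 25.7 CPM of Wee1 (others 19.2 to 21.3) and 0.897 of Myc (others 2.42 to 3.43), and Liver ZT18 replicate 4, with 0 CPM of Ccne1 (others 0.5 to 0.946), 1.10 of Gadd45a (others 3.23 to 4.55) and 0 of Gadd45b (others 0.575 to 1.23). Among the other livers, Btg2 was at 36.3 CPM in ZT21 replicate 3 while the others had 6.46 to 9.88, Wee1 at 13.3 in ZT15 replicate 3 (others 17.9 to 20.4) and Ccnd1 at 15.0 in ZT15 replicate 4 (others 19 to 21.5). In cortex, Ccnd1 was at 57.4 CPM in ZT18 replicate 5, with the others between 42.5 and 45.5. In striatum, Gadd45b was at 2.18 CPM in ZT0 replicate 4 (others 3.67 to 5.88) and at 3.52 in ZT18 replicate 1 (others 7.01 to 7.93), and Mdm2 was at 33.8 in ZT3 replicate 6 (others 41.6 to 49.0). In hypothalamus, Wee1 was at 19.2 CPM in ZT18 replicate 4 (others 24.5 to 27.5), Myc at 6.11 in ZT21 replicate 4 (others 3.46 to 4.27) and Gadd45a at 5.84 in ZT15 replicate 5 (others 7.29 to 8.04).

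The 24 h rhythm itself differed between tissues, by the interaction test, for 3 of the 10 genes between cortex and hypothalamus (6.14% of all genes tested), 7 between cortex and liver (63.6%), 2 between cortex and striatum (0.501%), 6 between hypothalamus and liver (60.6%) and 6 between striatum and liver (42.0%).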

How the results depend on the processing

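In the striatum ZT15 and ZT18 held 2 and 4 libraries, which limits its precision. The direction of a level between tissues depends on scaling: with library totals alone it was reversed for Btg2 between cortex and hypothalamus (0.028, log2, second minus first), for Mdm2 between cortex and liver (−0.36), striatum and liver (−0.40) and hypothalamus and liver (−0.31), for Ccnd1 between striatum and liver (−0.41) and hypothalamus and liver (−0.55), and for Gadd45a between hypothalamus and liver (−0.27). The median gene shifted by 0.03 between cortex and striatum, 0.17 between cortex and hypothalamus, −0.55 between cortex and liver, 0.14 between striatum and hypothalamus, −0.60 between striatum and liver and −0.72 between hypothalamus and liver. The 6 liver calls of the 24 h test were kept under every setting run. Leaving out each ZT15 or ZT18 striatum library in turn gave 1204 to 1555 striatal genes with a 24 h rhythm and 1 of the 10 genes each time. Striatal counts of 24 h genes were 1230, 322 in the first cycle alone and 798 with the library code, and of the 10 genes 2 with the cycle as a covariate and 0 in the first cycle alone. Hypothalamic 24 h genes fell from 4954 to 2124 in the first cycle alone. With the replicate block, 6 of the 10 genes were called at 24 h in hypothalamus, Myc, Gadd45g and Btg2 being added (adjusted p = 0.0145, 0.0224 and 0.0230), and so were 34.6% of all tested genes, against 24.3% without it. The labels do not say what a replicate number shares; within a tissue, libraries of one number at different ZT deviated together with a median r of 0.0147 (liver), 0.0642 (striatum), 0.111 (cortex) and 0.132 (hypothalamus), against −0.0043, −0.0091, −0.0037 and −0.0064 for other numbers. Genes with a 12 h component in cortex numbered 57, 125 without the libraries apart and 121 with the replicate block. In striatum they were 6, 0 without the libraries apart and 5306 with the replicate block, which called 2 of the 10 genes, and in hypothalamus 16, 9 and 1. Genes differing between cycles in cortex were 1217, 3042 without the libraries apart (with 2 of the 10, Wee1 and Ccnd1) and 231 with the replicate block. In striatum they were 570, and 0 with either setting, which left 0 of the 10. Rhythm differences between cortex and striatum numbered 97, 9 with the mouse block and 37 with the replicate block, and between striatum and hypothalamus 59, 0 with the mouse block, 12 without the libraries apart and 3 with the replicate block. Among values of single genes under the other settings, 7 were reversed in direction. Of the others, 18 no longer passed the threshold, 30 newly passed it and 1245 did neither. The causes were not tested.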

Other observations

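The genes whose 13 time point means were among the closest to those of a rhythmic member are given by Pearson's r across time points, with no test. In liver, Cdkn1a was followed by Lag3 (r = 0.983) and Med8 (r = 0.982). Wee1 was followed by Cyp2a5 (r = 0.983), the clock gene Per1 (r = 0.982) and Tob2 (r = 0.982), and Per1 peaked at ZT13.2 with a log2 ratio of 4.42. Ccne1 was followed by Slc5a6 (r = 0.990) and Gba2 (r = 0.987). In cortex, Gadd45a was followed by Dnajb5 (r = 0.985), Cbfa2t3 (r = 0.985) and the immediate early gene Nr4a3 (r = 0.984), and Ccnd1 by Etv4, an ETS family transcription factor, with r = 0.980.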
